A study of Mus musculus with 10 samples.

Results

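The comparison described here set ovulated metaphase II (MII) oocytes of *Patl2*-/- mice against MII oocytes of wild-type (WT) mice, gene by gene. Its samples were chosen by their titles and made up 5 of the 10 samples of the study, 3 from *Patl2*-/- and 2 from WT mice. The other 5 samples were oocytes at the earlier germinal vesicle (GV) stage, 3 *Patl2*-/- and 2 WT, and they enter below where they set the spread of the statistical model or stand beside an MII value. Each sample was total RNA from a pool of oocytes, read on an Affymetrix Clariom D mouse array. The *Patl2*-/- mice were homozygous for a tm1a-derived allele on a C57BL/6NTac background in which an exon had been removed with EIIaCre, a Cre recombinase driven by the adenoviral EIIa promoter that acts in the early embryo, so the allele is a whole-body and not an oocyte-specific deletion. WT MII oocytes came from mice given the same hormones. Females of both genotypes received 5 UI of PMSG and, 48 h later, 5 UI of hCG, and MII oocytes were collected 12 h after hCG. Follicular cells were stripped with hyaluronidase and then mechanically, 28 to 46 oocytes were pooled per sample, and 250 pg of RNA were labelled. The study's text gives a slightly later collection time and a higher minimum of oocytes per MII sample than the labels, whose values are printed here. The labels call the samples biological replicates, but the sources used here do not say which animals they came from or how old the MII donors were, so the p-values below measure the spread between these pools.

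PATL2 is an RNA-binding protein of oocytes from the Pat1 family, whose members act in the storage and decay of mRNA in the cytoplasm. A growing oocyte makes and stores the RNA it will need later, and transcription stops before the meiotic divisions resume. From that point the level of a transcript depends on how fast it is degraded, and the output of protein on which stored mRNAs gain or lose their poly(A) tails. An MII oocyte has extruded its first polar body and is held with its chromosomes on the second meiotic spindle until a sperm enters.

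Values are log2 expression levels after RMA, so that a difference of 1 is a 2-fold change, and each refers to a transcript cluster, the set of probes that the array assigns to a gene or transcript. The median level was between 4.48 and 4.56 on the 5 MII arrays. The 90th percentile of 5222 negative control probes lay between 6.17 and 6.46, and 15624 to 15856 clusters per array were above 6, a level below which a difference is compressed by the background. Replicate arrays correlated at 0.9932 or more and arrays of different genotype at 0.9916 or less. Of 20 oocyte markers, all were above 6 and their median level was 15.18, 15.13 and 15.18 on the *Patl2*-/- arrays and 15.02 and 15.18 on the WT arrays. Of 26 granulosa and cumulus cell markers, 5, 9 and 8 were above 6 on the *Patl2*-/- arrays and 4 and 4 on the WT arrays, and their summed linear signals were 1800, 3450 and 2350 against 1580 and 1600. *Cyp11a1*, a steroid-forming enzyme of follicle cells, stood at 6.56, 9.83 and 7.18 in *Patl2*-/- oocytes and at 5.91 and 6.08 in WT oocytes, and *Inha*, the inhibin alpha subunit, at 6.30, 8.95 and 8.65 against 6.69 and 5.41. None of these 26 markers passed the test, 3 were higher at an unadjusted p under 0.05, and *Patl2*-/- replicates 2 and 3 carried the highest summed signals. The difference, *Patl2*-/- minus WT, was above 0 for 22 of the 26 and below 0 for 4. Its median was 0.21, and 0.81 over those with a mean MII level of at least 6, against -0.02 over all genes. In pooled samples more attached cells and more RNA per cell cannot be told apart, and the part of these traces in the differences below was not tested. The 4 hybridisation controls, bacterial transcripts added to every labelled sample, read 11.68, 11.62 and 11.58 on *Patl2*-/- and 11.34 and 11.39 on WT arrays, a difference of 0.27 (exact permutation test, two-sided, p = 0.1, the smallest that 3 against 2 arrays can give).

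*Patl2* itself read 6.44, 6.10 and 6.59 on the *Patl2*-/- arrays and 8.73 and 8.55 on the WT arrays. The groups did not overlap, and the knockout values lay near the 90th percentile of the negative controls. The difference was -2.26 ± 0.27 (SE, adjusted p = 0.0208). Because the knockout level is not clearly above background, the size of this difference is at best a lower bound. In addition, the study reports the first exons of *Patl2* near WT amounts in *Patl2*-/- oocytes and the others reduced to varying degrees or absent. The cluster value can therefore combine kept and lost exons. The gene lies on chromosome 2, at chr2:122120108-122186189 in GRCm38.p6. The call was lost when any 1 of the 5 MII arrays was left out, with differences from -2.37 to -2.13 and adjusted p-values up to 0.139, and it was kept when any GV array was left out.

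Of 65956 clusters, 242 were higher in *Patl2*-/- than in WT MII oocytes (0.367% of those tested) and 305 were lower (0.462%) at an adjusted p under 0.05 in limma's moderated test, or 0.829% in all. The called differences were of moderate size, with a median of 1.04 among the higher and -0.87 among the lower clusters. A change of at least 2-fold was reached by 130 higher and 111 lower clusters. At an unadjusted p under 0.05, 3136 clusters were higher (4.75%) and 4975 lower (7.54%). The methods' threshold of an unadjusted p under 0.05 with a 2-fold change, applied to the same model, gave 410 higher (0.622%) and 586 lower (0.888%). The arrays of the 2 genotypes did not overlap for any of the 547 called clusters, and they did not overlap for 28% of all clusters. A group mean of 106 called clusters lay under 6.35, the median over MII arrays of the negative control percentile. Taking for each gene its cluster with the highest mean level, 30176 genes were measured, of which 183 were higher (0.606%) and 227 lower (0.752%), and 172 and 203 of these had a mean MII level of at least 6. At an unadjusted p under 0.05 the shares of genes were 6.56% higher and 9.17% lower. Calls were more frequent at higher levels. Of the 10938 genes with a mean MII level of at least 6, 1.57% were called higher and 1.86% lower, and 14% were higher and 16% lower at an unadjusted p under 0.05. For the gene lists below, most of whose members are expressed in oocytes, these shares are the closer background. By class, counted in clusters, 129 of 19296 protein-coding clusters were higher and 163 lower, as were 49 and 35 of 4296 pseudogene clusters and 2 and 3 of 3237 clusters of long noncoding RNAs.

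**Figure D1:**
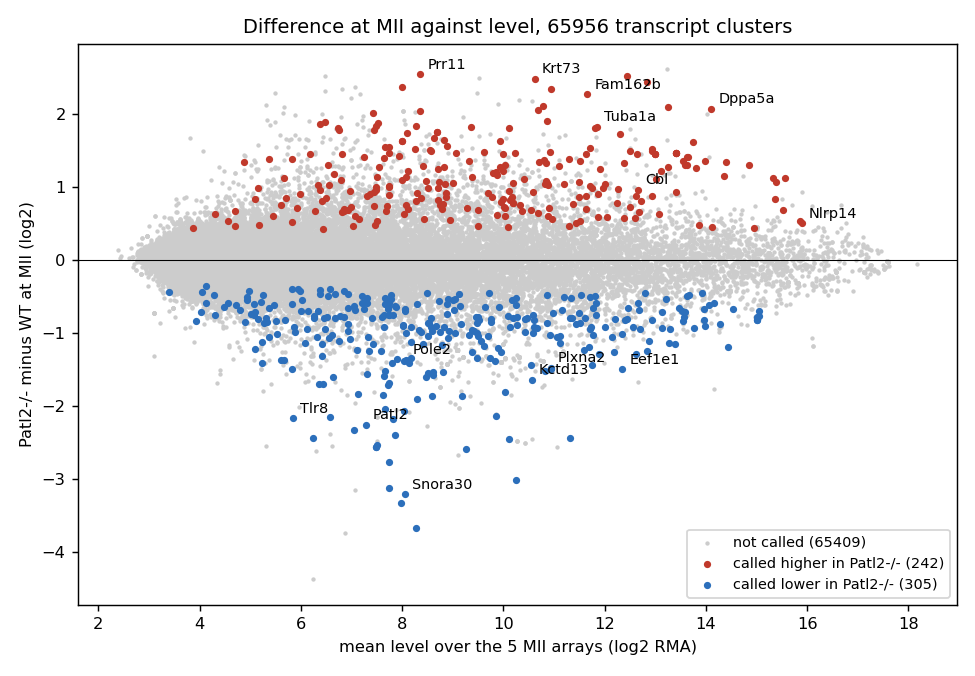
Each point is 1 of 65956 transcript clusters, plotted by its mean log2 level on the MII arrays (x axis) and its log2 difference, *Patl2*-/- minus WT (y axis). Red points are the 242 clusters called higher and blue points the 305 called lower at an adjusted p under 0.05, with some genes of the text named, and the called clusters reach down to levels near the negative controls.

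The calls rested on few arrays. Without WT replicate 1 the test called 10 clusters higher and 5 lower, and without WT replicate 2 it called 75 and 168. Leaving out *Patl2*-/- replicate 1, 2 or 3 gave 143 and 94, 50 and 45, or 42 and 32. A fit to the 5 MII arrays alone called 0 clusters in either direction, with 3414 higher and 5016 lower at an unadjusted p under 0.05. Over the 10 fits that each left out 1 array, 9 clusters were called every time: the plexin *Plxna2* and *Nr2c2ap*, which were lower, and *Cbl*, *Tuba1a*, *Tuba1c*, a cluster shared by *Tuba1b* and Gm5620, Gm14150, Gm6682 and a cluster with no gene name, which were higher. Of 113 called clusters that the gene rule or the gene lists single out, 108 were not called without WT replicate 1, 78 without WT replicate 2, and 49, 78 and 83 without *Patl2*-/- replicate 1, 2 and 3. *Eif3m*, *Mtf2*, *Zp3* and *H2bc18* were lost in each of the 10 fits, with adjusted p-values between 0.0511 and 0.217. Apart from those of the 9 clusters, each call named below was ended by at least 1 left-out array.

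**Figure D2:**
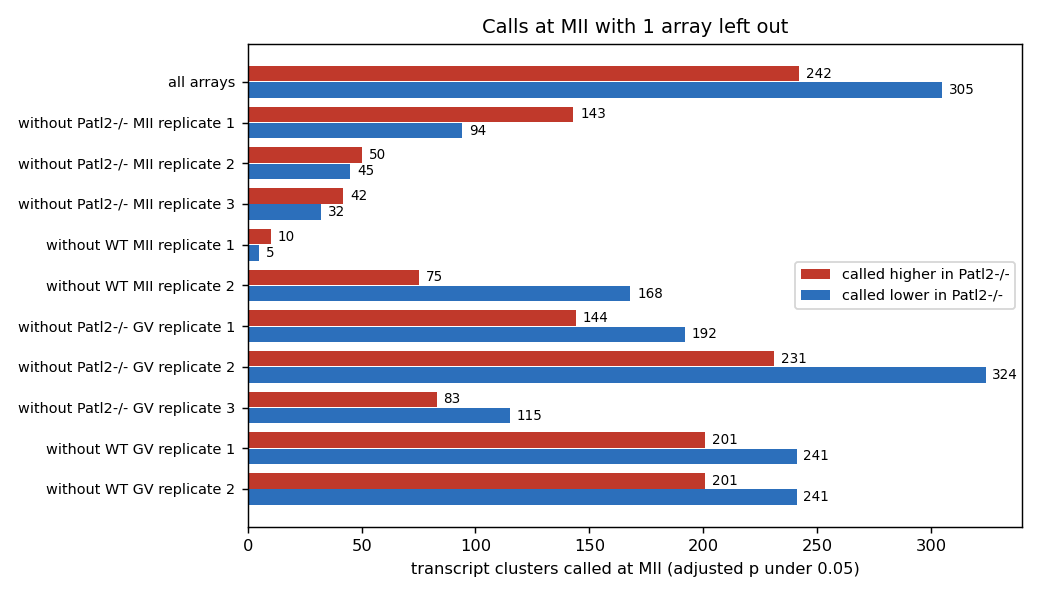
Bars give the number of clusters (x axis) called higher (red) and lower (blue) in *Patl2*-/- MII oocytes with all 10 arrays and with each array left out (y axis). The counts are 242 and 305 with all arrays, and lowest, at 10 and 5, without WT MII replicate 1.

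Alpha-tubulin transcripts were higher in *Patl2*-/- MII oocytes. Alpha-tubulin pairs with beta-tubulin to form the microtubules of the spindle. *Tuba1a* read 12.49, 12.57 and 12.64 in *Patl2*-/- oocytes and 10.65 and 10.85 in WT oocytes. The difference of 1.82 ± 0.11 was 3.52-fold (adjusted p = 0.00755) and lay between 1.72 and 1.92 over the fits with an array left out. The neighbouring gene *Tuba1c* read 14.10, 14.00 and 14.14 in *Patl2*-/- oocytes and 11.64 and 12.34 in WT oocytes, a difference of 2.09 ± 0.19 (adjusted p = 0.0113). In both genes every knockout array was above every WT array by more than the spread within either group. A second cluster that carries the name *Tuba1c*, with an identifier of chromosome 13, read 15.06, 14.72 and 15.00 against 13.65 and 13.53, a difference of 1.34 ± 0.15 (adjusted p = 0.0179). A cluster annotated to both *Tuba1b* and Gm5620 read 12.52, 12.53 and 12.58 against 10.62 and 10.85, a difference of 1.81 (adjusted p = 0.00755). The coding sequences of these tubulins are near copies of each other, so that probes can be shared and the 4 clusters are not 4 independent readings. Of 17 tubulin genes with a cluster of their own, these 2 rose and none fell, 1 more was higher at an unadjusted p under 0.05, and the median difference of the 17 was -0.00, against -0.02 over all genes. At GV the differences were 0.52 for *Tuba1a* and 0.48 and 0.11 for the *Tuba1c* clusters, none of them called. From GV to MII the level of *Tuba1a* changed by -0.80 in *Patl2*-/- and by -2.09 in WT oocytes, and the test of that difference gave an adjusted p of 0.335.

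*Tuba1a*, *Tuba1b* and *Tuba1c* lie within 107 kb of each other on chromosome 15, and their promoters are shown because called clusters carry their names, in the case of *Tuba1b* only the cluster shared with Gm5620. Each line runs 5′ to 3′ from 250 bases before to 50 bases after the annotated start (RefSeq, GRCm38.p6). *Tuba1a* is at chr15:98953452-98953751 on the minus strand, *Tuba1b* at chr15:98934341-98934640 on the minus strand and *Tuba1c* at chr15:99029641-99029940 on the plus strand. Capitals mark matches to 4 motifs, searched on both strands, and no matches overlap. The first is the CCAAT box, spelled CCAAT, which 37.4% of the 32851 promoters of the table hold. The GC box was searched as GGGCGG and is held by 35.7% of them. The CHR element of cell cycle promoters was searched as TTTGAA and is held by 17.9%. The TATA box was searched as TATAAA and is held by 13.6%.
Tuba1a: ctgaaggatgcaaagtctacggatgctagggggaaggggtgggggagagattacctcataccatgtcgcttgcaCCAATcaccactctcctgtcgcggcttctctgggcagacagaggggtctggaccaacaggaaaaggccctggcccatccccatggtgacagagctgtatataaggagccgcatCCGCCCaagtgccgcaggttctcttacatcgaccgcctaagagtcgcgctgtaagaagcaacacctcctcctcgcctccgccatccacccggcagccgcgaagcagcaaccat
Tuba1b: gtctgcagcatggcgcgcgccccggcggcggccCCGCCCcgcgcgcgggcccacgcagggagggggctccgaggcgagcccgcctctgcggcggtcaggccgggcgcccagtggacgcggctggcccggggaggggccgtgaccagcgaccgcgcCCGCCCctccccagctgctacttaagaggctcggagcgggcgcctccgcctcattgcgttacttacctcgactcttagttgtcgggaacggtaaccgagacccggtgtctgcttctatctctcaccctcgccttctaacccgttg
Tuba1c: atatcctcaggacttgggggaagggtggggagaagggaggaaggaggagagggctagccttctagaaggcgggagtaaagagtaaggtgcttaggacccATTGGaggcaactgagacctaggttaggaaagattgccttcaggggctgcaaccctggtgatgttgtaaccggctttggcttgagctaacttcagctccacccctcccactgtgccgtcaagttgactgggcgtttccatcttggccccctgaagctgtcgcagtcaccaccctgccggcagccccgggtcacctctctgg
The *Tuba1a* window holds 1 CCAAT and 1 GC box match, the *Tuba1b* window 2 GC box matches and the *Tuba1c* window 1 CCAAT match, and none holds a TATA or CHR match. No motif is in all 3 windows. GC content was 59% for *Tuba1a*, 72.7% for *Tuba1b* and 58% for *Tuba1c*, against a median of 52.7% over all promoters. A match describes the letters of the window and is not a measured binding site.

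The largest called rise among genes without a predicted name was that of *Prr11*, a proline-rich protein of the cell cycle. It read 9.45, 9.73 and 8.95 in *Patl2*-/- oocytes and 6.60 and 7.07 in WT oocytes. The groups were separated by almost 2 log2 units, and the difference was 2.54 ± 0.30 (adjusted p = 0.0193), or 5.83-fold. Leaving out arrays kept it between 2.31 and 2.78 and ended the call in 4 fits, those without either WT array and without *Patl2*-/- replicate 1 or 2 (adjusted p up to 0.134). *Ska2*, a subunit of the SKA complex that couples kinetochores to microtubule ends, is the head-to-head neighbour of *Prr11*, and read 9.22, 9.51 and 8.95 against 8.33 and 7.49. Its arrays did not overlap either, which held for 28% of all clusters, and the difference of 1.32 ± 0.24 did not pass the test (adjusted p = 0.0558). At GV the differences were 1.21 for *Prr11* and 1.13 for *Ska2*. The start sites of the 2 genes are 546 bases apart on opposite strands of chromosome 11, and 46 bases between the 2 windows are in neither. Both windows are shown because they face each other across that gap. *Prr11* is at chr11:87108665-87108964 on the minus strand and *Ska2* at chr11:87109011-87109310 on the plus strand (RefSeq, GRCm38.p6), with capitals as for the tubulin genes.
Prr11: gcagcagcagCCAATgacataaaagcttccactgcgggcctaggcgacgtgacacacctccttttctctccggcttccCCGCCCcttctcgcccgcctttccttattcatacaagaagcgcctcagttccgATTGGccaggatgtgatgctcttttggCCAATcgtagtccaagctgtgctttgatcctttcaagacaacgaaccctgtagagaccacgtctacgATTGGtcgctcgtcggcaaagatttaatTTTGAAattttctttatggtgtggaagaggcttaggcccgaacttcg
Ska2: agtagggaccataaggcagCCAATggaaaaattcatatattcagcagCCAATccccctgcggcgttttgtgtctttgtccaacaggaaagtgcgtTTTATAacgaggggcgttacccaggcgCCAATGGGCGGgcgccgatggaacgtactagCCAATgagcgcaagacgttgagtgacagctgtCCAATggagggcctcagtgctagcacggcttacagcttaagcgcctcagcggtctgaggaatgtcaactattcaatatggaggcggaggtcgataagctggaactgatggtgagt
The *Prr11* window holds 4 CCAAT matches, 1 GC box and 1 CHR element, and the *Ska2* window holds 5 CCAAT matches, 1 GC box that directly follows a CCAAT, and 1 TATA match on the opposite strand. GC content was 51.3% for *Prr11* and 52.7% for *Ska2*.

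A few genes of chromosome attachment and cohesion passed the test. Of 44 genes listed for the SKA complex, kinetochore and spindle checkpoint, with *Prr11* among them, 1 rose (*Prr11*) and 2 fell, with a median of -0.02. At an unadjusted p under 0.05, 5 of the 44 were higher and 8 lower. Of the 10938 genes with a mean MII level of at least 6, 1.57% rose and 1.86% fell, with 14% and 16% at an unadjusted p under 0.05. *Cenpe*, a kinetochore kinesin, read 10.04, 10.13 and 9.94 in *Patl2*-/- oocytes and 11.12 and 10.92 in WT oocytes, a difference of -0.99 (adjusted p = 0.0438). *Cdca8*, the borealin subunit of the chromosomal passenger complex, read 10.28, 10.18 and 9.99 against 10.95 and 10.96 (-0.80, adjusted p = 0.0364). For both genes all knockout arrays lay below all WT arrays, as in every cluster called lower. Of 30 genes of cohesin, condensin and SMC5/6, 2 fell and none rose, and 2 were higher and 5 lower at an unadjusted p under 0.05. *Smc5*, a core subunit of the SMC5/6 complex, read 7.59, 6.69 and 6.88 against 8.81 and 8.68, a difference of -1.69 (adjusted p = 0.0275), which lay between -1.96 and -1.51 over the left-out fits. *Sgo2a*, the shugoshin that protects centromeric cohesion in meiosis, read 8.34, 8.31 and 7.96 against 9.10 and 9.15 (-0.92, adjusted p = 0.0475). Of 32 motor genes *Dctn2*, the dynamitin subunit of dynactin, fell, with 7.57 on each *Patl2*-/- array against 8.74 and 9.23 in WT oocytes (-1.42, adjusted p = 0.0179). The identical readings on 3 arrays arise in the deposited values.

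Few cell cycle genes beyond the spindle passed the test, as among all genes with a mean MII level of at least 6 (1.57% higher and 1.86% lower). None of 25 meiotic cell cycle regulators and none of 40 G1/S genes passed the test, with medians of 0.03 and -0.00. At an unadjusted p under 0.05, 5 of the 25 were higher and 4 lower, and 4 of the 40 were higher and 4 lower. *Cdc25a*, a phosphatase that activates cyclin-dependent kinases, read 11.16, 11.55 and 11.19 against 12.49 and 12.12, a difference of -1.0 ± 0.26 that did not pass (adjusted p = 0.151). Of 18 subunits and regulators of the anaphase-promoting complex *Anapc4* fell, with 11.53, 11.54 and 11.43 in *Patl2*-/- oocytes and 12.16 and 12.17 in WT oocytes (-0.67, adjusted p = 0.0179). Of 39 genes of replication licensing and DNA polymerases 1 fell and none rose, 12 were lower and 2 higher at an unadjusted p under 0.05, and the median was -0.17, between -0.17 and -0.09 under other scalings. With an array left out that median lay between -0.26, without WT replicate 1, and -0.08, without WT replicate 2. *Pole2*, a subunit of DNA polymerase epsilon, was the one that fell, at 7.49, 7.51 and 7.56 against 8.83 and 8.95, a difference of -1.37 ± 0.10 (adjusted p = 0.00755). Its knockout arrays agreed to within 0.1 and none came near a WT array. Of 43 genes of actin and polar body division 1 rose and 1 fell. *Cobl*, an actin nucleator, rose, at 9.75, 9.98 and 9.85 against 8.53 and 8.5 (1.35, adjusted p = 0.0272). *Ccdc69*, a protein of the central spindle, fell, at 13.86, 13.88 and 14.05 against 14.58 and 15.03 (-0.88, adjusted p = 0.0402).

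**Figure D3:**
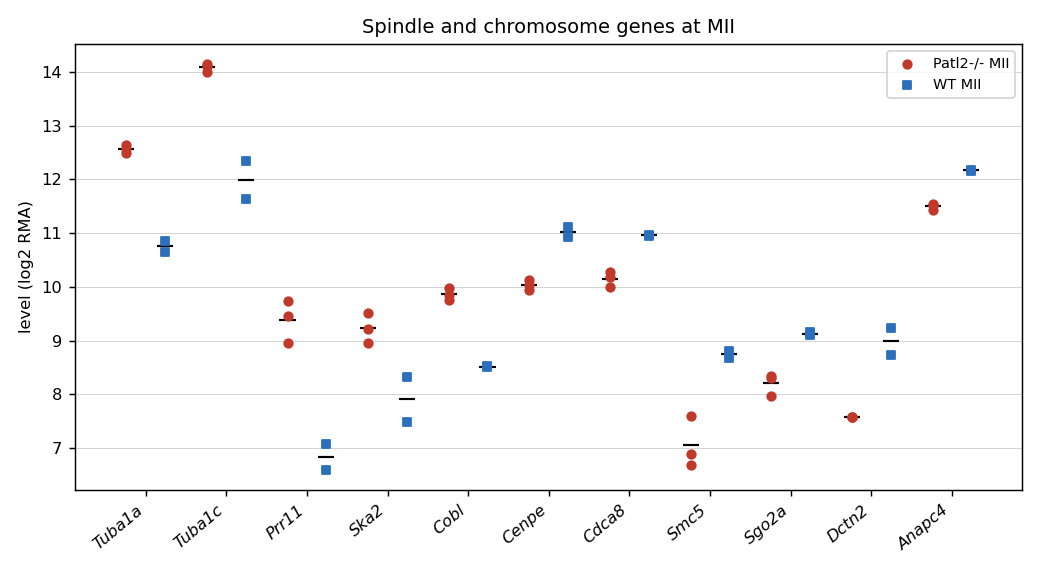
Log2 level (y axis) of spindle and chromosome genes on each MII array, *Patl2*-/- (red circles) left of WT (blue squares) for each gene (x axis), with a line at each group mean. *Tuba1a*, *Tuba1c*, *Prr11*, *Ska2* and *Cobl* are higher on all 3 *Patl2*-/- arrays than on either WT array, while *Smc5*, *Dctn2*, *Cenpe*, *Cdca8*, *Sgo2a* and *Anapc4* are lower on all 3.

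Of the clusters of short nuclear noncoding RNAs, 24 fell in *Patl2*-/- oocytes and none rose. These RNAs are the small nuclear RNAs (snRNAs) of the spliceosome, and the small nucleolar RNAs (snoRNAs) and their Cajal body relatives that guide the chemical modification of ribosomal and spliceosomal RNA. Of 928 snRNA clusters 10 fell (1.08%), of 959 snoRNA clusters 13 (1.36%), and of 37 guide RNA clusters 1, against 0.462% of all clusters. The median difference was -0.10 over the snRNA clusters, of which 9 were higher and 91 lower at an unadjusted p under 0.05, and 0.01 over the snoRNA clusters, of which 79 were higher and 101 lower. The 24 clusters hold 23 distinct sets of values, and 21 carry predicted names. The differences of these called clusters ran between -3.22 and -0.43 with a median of -1.94. *Snora30*, which guides pseudouridylation, read 6.90, 7.16 and 6.25 in *Patl2*-/- oocytes and 10.45 and 9.51 in WT oocytes. That difference, -3.22 ± 0.36 or 9.29-fold, was the largest called fall among genes without a predicted name (adjusted p = 0.0179), and lay between -3.69 and -2.74 with an array left out. *Scarna9*, a Cajal body RNA, read 7.11, 6.70 and 6.86 against 9.64 and 8.93 (-2.39, adjusted p = 0.0415). *Rnu2-10*, a copy of the U2 snRNA, read 6.90, 7.0 and 6.95 against 9.62 and 8.65 (-2.19, adjusted p = 0.0375), and its second cluster differed by -2.09 without passing (adjusted p = 0.0638). In these 3 genes the lowest WT reading was more than 1 log2 unit above the highest knockout reading. A cluster shared by *Snora34* and the microRNA precursor *Mir1291* read 10.64, 10.59 and 9.81 against 12.92 and 12.65 (-2.44, adjusted p = 0.0176).

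The 24 clusters behaved differently in the 2 WT pools. The median level over the 24 was 6.40, 6.49 and 6.27 on the *Patl2*-/- arrays and 8.98 and 8.36 on the WT arrays, and WT replicate 1 was above WT replicate 2 in 23 of the 24. Without WT replicate 1 none of the 24 was called, and their median difference was -1.57. Without WT replicate 2, 12 were called at a median of -2.34. Under each of the 3 other scalings 23 were called. At GV the median difference was 0.08, in a range of -0.14 to 0.60, and none was called. The median level of the 24 at GV was 5.84, 6.47 and 6.51 in *Patl2*-/- oocytes and 6.06 and 6.17 in WT oocytes, so that the WT MII arrays were the highest of the 10. *Snora30* was different, with 9.41, 9.72 and 10.12 in *Patl2*-/- and 9.44 and 9.86 in WT oocytes at GV, and its level changed by -2.98 from GV to MII in *Patl2*-/- and by 0.33 in WT oocytes. None of the 24 passed limma's test of the difference between the MII and GV effects (smallest adjusted p = 0.434). Their unadjusted p-values there ran from 0.000164 to 0.00905. That contrast contains the MII difference on which the 24 were chosen, so small unadjusted values were favoured by the choice. WT replicate 1 also stood apart in ribosomal RNA clusters, where the median of 88 clusters was 4.11, 4.18 and 4.17 on *Patl2*-/- arrays and 5.47 and 4.15 on WT arrays. Beyond the values without this array, its part in the short RNA differences was not tested. Of 80 snoRNA clusters with a mean MII level of at least 6, 9 fell, which is 11.2%, against 1.65% of all clusters at that level. The median difference of the 80 was -0.39. This level is a mean over both genotypes, so a cluster can pass on its WT readings alone. Gm23300 and Gm22210, both among the 9, did so, with means of 5.68 and 5.90 in *Patl2*-/- and of 7.38 and 6.96 in WT oocytes. Over all 959 snoRNA clusters 1.36% fell and the median difference was 0.01. Of 643 clusters of microRNA precursors 1 was called, *Mir3094*, and its readings of 4.88, 4.88 and 4.92 against 4.41 and 4.44 are under the negative control percentile.

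**Figure D4:**
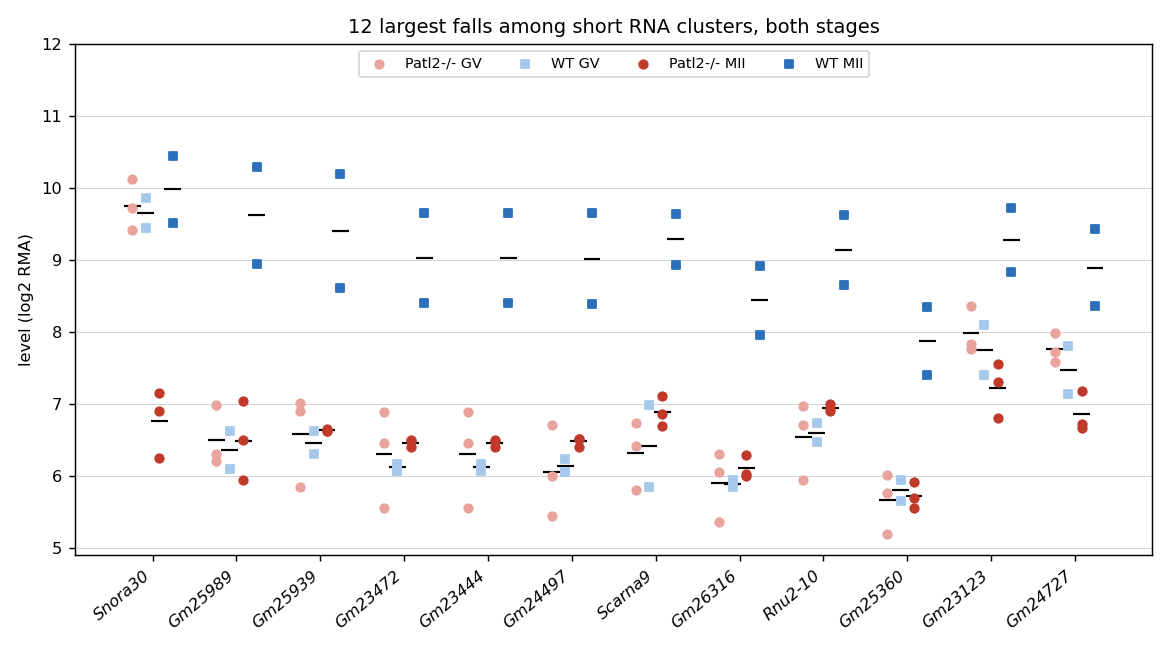
Log2 level (y axis) of the 12 short RNA clusters with the largest falls among those called lower in *Patl2*-/- MII oocytes (x axis), on each array of the 4 groups, with a line at each group mean and *Patl2*-/- left of WT at each stage. At MII the *Patl2*-/- readings (red circles) lie below the WT readings (blue squares) for each cluster, as in every cluster called lower. The paler GV readings of the 2 genotypes lie close together, but the clusters were chosen on their MII difference.

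Transcripts of translation factors were lower where they passed the test. Of 38 translation factors 6 fell and none rose, and 18 were lower and 3 higher at an unadjusted p under 0.05. Among all genes with a mean MII level of at least 6, 1.86% fell and 1.57% rose, with 16% and 14% at an unadjusted p under 0.05. The median difference of the 38 was -0.22, between -0.22 and -0.16 under other scalings, against -0.02 over all genes. With an array left out, between 0 and 3 translation factors fell. *Eef1e1*, a scaffold protein of the tRNA synthetase complex, had the largest fall, with 11.92, 11.80 and 11.52 in *Patl2*-/- oocytes and 13.33 and 13.16 in WT oocytes (-1.50 ± 0.15, adjusted p = 0.0122). *Eif3m* and *Eif3e* belong to eIF3, which brings mRNA to the small ribosomal subunit. *Eif3m* read 9.33, 8.74 and 9.35 against 10.20 and 10.45 (-1.18, adjusted p = 0.0499). *Eif3e* read 10.76, 10.65 and 10.61 against 11.17 and 11.14 (-0.48, adjusted p = 0.0366). *Eif2b1* and *Eif2b4*, subunits of the exchange factor that recharges eIF2, differed by -0.48 (adjusted p = 0.0364) and -0.79 (adjusted p = 0.0437). *Eif6*, which keeps free large subunits from joining, differed by -0.70 (adjusted p = 0.0378). In all 6 the *Patl2*-/- and WT arrays did not overlap, but that held for all 547 called clusters and for 28% of all clusters.

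Ribosome assembly genes showed fewer calls in the same direction. Of 51 ribosome biogenesis factors 3 fell and none rose, with a median of -0.16. The shares of all genes with a mean MII level of at least 6 were 1.86% lower and 1.57% higher. *Utp11*, of the small-subunit processome, read 9.13, 8.94 and 9.52 against 10.38 and 10.72 (-1.35, adjusted p = 0.0467). *Pinx1*, a nucleolar protein that also inhibits telomerase, read 11.43, 11.30 and 10.90 against 12.33 and 12.46 (-1.19, adjusted p = 0.0441). *Nop14*, also of the processome, read 10.60, 10.89 and 10.55 against 11.43 and 11.39 (-0.73, adjusted p = 0.0348). None of the 3 had overlapping arrays, nor did any other called cluster. Of 74 mitochondrial ribosomal protein genes *Mrpl21* fell, by 1.26 (adjusted p = 0.0454). None of 44 cytosolic ribosomal protein genes with a cluster of their own passed the test, 3 being higher and 6 lower at an unadjusted p under 0.05.

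Ribosomal protein pseudogenes were the exception, and nearly all of their calls came from 1 parent gene. Of 16 clusters named as pseudogenes of *Rps12*, a small-subunit protein gene, 15 rose, with a median difference of 1.45 at MII and of -0.04 at GV. Their median level was 13.02, 13.67 and 13.85 in *Patl2*-/- oocytes and 12.03 and 12.05 in WT oocytes, so the knockout pools were all above WT and *Patl2*-/- replicate 1 was the lowest of the 3. The largest difference was that of *Rps12-ps23*, at 11.78, 12.46 and 12.73 against 10.73 and 10.85 (1.53 ± 0.24, adjusted p = 0.0402). The 16 clusters hold 14 distinct sets of values and their sequences are copies of the same parent, so probes can be shared, and *Rps12* has no cluster of its own here. A cluster annotated to *Rps12* together with Gm21571 and pseudogenes of *Rps12* rose too, at 14.11, 14.69 and 14.77 against 13.38 and 12.97 (1.35, adjusted p = 0.0395). The parent and its copies were not told apart. Of 137 pseudogenes of large-subunit proteins none rose and 1 fell. *Rpsa-ps9* was the one other small-subunit pseudogene that rose, at 8.01, 8.26 and 8.20 against 6.62 and 6.14 (1.78, adjusted p = 0.0158).

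Calls were few among genes that handle mRNA itself, as they were among all genes with a mean MII level of at least 6 (1.57% higher and 1.86% lower). None of 47 decay and deadenylation factors passed, with 6 higher and 10 lower at an unadjusted p under 0.05 and a median of -0.03. Of 46 storage, CPEB and translational control factors 1 fell, *Eif4ebp2*, a repressor of the cap-binding factor eIF4E, with 7.69, 7.89 and 7.76 in *Patl2*-/- oocytes and 8.50 and 8.43 in WT oocytes (-0.68, adjusted p = 0.0305). Of 44 splicing factors 1 rose and 2 fell. *Bud13*, a subunit of the RES complex of the spliceosome, had the larger fall, at 7.73, 8.04 and 7.75 against 9.79 and 9.63 (-1.87 ± 0.23, adjusted p = 0.0220). *Ccdc84* read 9.11, 8.69 and 8.95 against 10.07 and 9.83 (-1.03, adjusted p = 0.0258). *Mbnl1*, an RNA-binding regulator of alternative splicing and mRNA localisation, rose, at 7.04, 7.09 and 7.25 against 5.95 and 5.97 (1.17, adjusted p = 0.0210). *Xpo5*, the exporter of microRNA precursors, was the only call among 26 small RNA pathway genes, at 8.98, 9.0 and 9.09 against 9.91 and 10.10 (-0.98, adjusted p = 0.0179).

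Lists of oocyte identity genes held 6 called rises and 1 called fall, and most of the lists did not shift as a whole. Like the other lists, they were chosen with earlier results of these data known. For comparison, 1.57% of all genes with a mean MII level of at least 6 rose and 1.86% fell. The median difference was 0.04 for Dppa, Khdc1 and pluripotency genes and 0.04 for subcortical maternal complex and oocyte *Nlrp* genes. It was -0.06 for oocyte ligands and transcription factors and 0.16 for zona pellucida and sperm-binding genes. *Dppa5a*, a KH-domain RNA-binding protein of pluripotent and germ cells, read 14.94, 14.63 and 15.23 in *Patl2*-/- oocytes and 12.78 and 12.95 in WT oocytes. The groups were apart by well over 1 log2 unit, the difference was 2.07 ± 0.18 or 4.19-fold (adjusted p = 0.0105), and only the fit without WT replicate 1 ended the call (adjusted p = 0.0754). At GV the difference was 0.06, and from GV to MII the level changed by -2.03 in *Patl2*-/- and by -4.04 in WT oocytes (adjusted p of that difference = 0.335). It was the only call among 26 Dppa, Khdc1 and pluripotency genes. Of 12 zona pellucida and sperm-binding genes 3 rose and none fell, with a median of 0.16 that lay between 0.11 and 0.26 with an array left out, highest without *Patl2*-/- replicate 3. *Zp3*, a zona pellucida glycoprotein, read 16, 16.04 and 16.16 against 15.64 and 15.44 (0.53, adjusted p = 0.0488). *Oosp2*, an oocyte-secreted protein, read 15.86, 15.81 and 16.34 against 15.00 and 14.78 (1.11, adjusted p = 0.0489). *Zp4-ps*, the mouse pseudogene of another zona protein gene, read 10.69, 10.65 and 11.15 against 9.14 and 8.92 (1.80, adjusted p = 0.0171). Of 19 subcortical maternal complex and oocyte *Nlrp* genes 2 rose. *Nlrp14* read 16.05, 16.12 and 16.12 against 15.59 and 15.59 (0.50, adjusted p = 0.0179). *Nlrp2* read 11.73, 11.49 and 11.81 against 11.05 and 10.78 (0.77, adjusted p = 0.0441). Of 32 oocyte ligands and transcription factors *Fgf9* fell, at 5.86, 5.91 and 5.88 against 7.37 and 7.05 (-1.33, adjusted p = 0.0415), with its knockout readings below the negative control percentile. *Sohlh2*, a transcription factor of early follicles, differed by -2.38 ± 0.42 and did not pass (adjusted p = 0.0509).

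Signalling genes moved both ways. Of 55 growth factor, MAP kinase and dual specificity phosphatase genes 4 rose and 2 fell. Over all genes 0.606% rose and 0.752% fell, and 1.57% and 1.86% of those with a mean MII level of at least 6. *Elk3* and *Etv5* are ETS transcription factors downstream of MAP kinase. *Elk3* read 8.75, 9.07 and 8.95 in *Patl2*-/- oocytes and 7.60 and 7.70 in WT oocytes (1.28, adjusted p = 0.0113). *Etv5* read 6.76, 6.99 and 7.15 against 5.92 and 5.96 (1.03, adjusted p = 0.0343). The phosphatases *Dusp14* and *Dusp16* differed by 0.58 (adjusted p = 0.0287) and 1.06 (adjusted p = 0.0312). *Dusp1*, an early-response MAP kinase phosphatase, was lower, at 11.77, 11.78 and 11.60 against 12.75 and 12.82 (-1.06, adjusted p = 0.0462), as was the pseudophosphatase *Styx* (-1.24, adjusted p = 0.0415). *Dusp7*, a phosphatase that oocytes need to resume meiosis on time, read 15.67, 15.81 and 15.75 against 15.57 and 15.87, a difference of 0.02 ± 0.14 (adjusted p = 0.982) within the spread of the WT arrays.

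In the Wnt, NF-kB and mTORC1 genes, 4 of 51 rose and 2 fell, against 1.57% and 1.86% of genes with a mean MII level of at least 6. *Nfkbia*, the inhibitor that holds NF-kB in the cytoplasm, fell, at 7.70, 8.07 and 7.70 against 9.49 and 9.36 (-1.60, adjusted p = 0.0179). *Pygo1*, a coactivator of beta-catenin, fell too, at 6.79, 6.54 and 6.73 against 8.09 and 8.41 (-1.57, adjusted p = 0.0114). *Nfkbiz*, a nuclear IkB protein, rose, at 10.15, 10.01 and 10.47 against 8.45 and 9.02 (1.48, adjusted p = 0.0287). *Frzb*, a secreted Wnt antagonist, read 7.62, 7.14 and 7.62 against 5.60 and 5.71 (1.81, adjusted p = 0.0118), with the WT arrays below the negative control percentile. *Sesn3*, an inhibitor of mTORC1, and *Peli2*, a ubiquitin ligase of Toll-like receptor signalling, differed by 1.34 (adjusted p = 0.0203) and 1.78 (adjusted p = 0.0336). A second, dimmer *Sesn3* cluster differed by 0.13 (adjusted p = 0.797). None of 21 ephrins and Eph receptors passed, with 4 higher and 6 lower at an unadjusted p under 0.05, *Efna4* at -1.27 ± 0.34 (adjusted p = 0.166) among them.

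Among chromatin and transcription genes, 2 of 50 rose and 1 fell, against 1.57% and 1.86% of genes with a mean MII level of at least 6. *Eed*, a core subunit of Polycomb repressive complex 2, fell slightly and with little spread, at 14.78, 14.69 and 14.84 in *Patl2*-/- oocytes and 15.46 and 15.48 in WT oocytes (-0.70 ± 0.07, adjusted p = 0.0114). *Mtf2*, an accessory subunit of the same complex, was higher by 0.45 (adjusted p = 0.0441), and *Rcor3*, a corepressor, by 0.96 (adjusted p = 0.0205) in its brightest cluster, which is not placed on a chromosome. Of the 4 other *Rcor3* clusters 1 was also called (0.90, adjusted p = 0.0195), and the one placed on chromosome 1 differed by 0.42 (adjusted p = 0.115) and the remaining ones by 0.18 and -0.14. Of 40 Mediator and RNA polymerase II subunits *Med1* rose, at 12.60, 12.71 and 12.49 against 11.99 and 12.07 (0.57, adjusted p = 0.0311), while 13 were lower and 3 higher at an unadjusted p under 0.05 and the median was -0.21. That median lay between -0.28, without WT replicate 1, and -0.10, without WT replicate 2. Of 29 replication-dependent histones *H2bc18* rose (0.94, adjusted p = 0.0418). The 15 *Xlr* genes, an X-linked family of oocyte and germ cell nuclear proteins with many copies, had a median difference of -0.71, and none was above 0. Of the 15, 10 were lower at an unadjusted p under 0.05, against 16% of genes with a mean MII level of at least 6. None passed after adjustment. Their median level was 9.10, 9.82 and 9.21 on the *Patl2*-/- arrays and 9.81 and 9.81 on the WT arrays, so *Patl2*-/- replicate 2 was not below WT. As copies of 1 family they can share probes, so the 15 are not 15 independent readings. The median difference of the *Xlr* genes lay between -0.72 and -0.66 under other scalings and between -0.88 and -0.51 with an array left out.

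Metabolic and protein quality genes gave single calls, where 1.57% of all genes with a mean MII level of at least 6 rose and 1.86% fell. Of 74 oxidative phosphorylation subunits 1 rose and none fell, with 14 higher and 9 lower at an unadjusted p under 0.05 and a median of 0.02. The riser was *Ndufb8*, of complex I, at 7.82, 7.55 and 7.86 in *Patl2*-/- oocytes and 6.89 and 7.12 in WT oocytes (0.74, adjusted p = 0.0381). Of 43 proteasome genes *Psma6*, an alpha subunit of the core particle, fell, at 10.09, 10.24 and 10.25 against 11.19 and 11.19 (-1.0, adjusted p = 0.0305). Of 40 chaperones *Cct7*, of the chaperonin that folds tubulin and actin, rose, at 10.16, 10.46 and 10.36 against 9.26 and 9.01 (1.19, adjusted p = 0.0305). All 3 genes separated the genotypes on every array, as every called cluster did. Of 29 cholesterol genes *Stard4*, a carrier of cholesterol between membranes, rose, at 8.28, 8.85 and 8.43 against 7.24 and 6.94 (1.42, adjusted p = 0.0250). In the same list *Pgrmc1*, a haem-binding membrane protein, fell, at 7.69, 8.04 and 8.22 against 9.26 and 9.79 (-1.54, adjusted p = 0.0287). Of 34 glutathione and antioxidant genes *Gsta4*, which clears lipid aldehydes, fell, at 12.15, 12.08 and 12.13 against 12.87 and 12.98 (-0.81, adjusted p = 0.0179). No gene passed among 30 egg activation, calcium and zinc genes (6 higher and 3 lower at an unadjusted p under 0.05), 31 apoptosis regulators (4 and 1) or 6 mitochondrially encoded mRNAs (0 and 1).

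**Figure D5:**
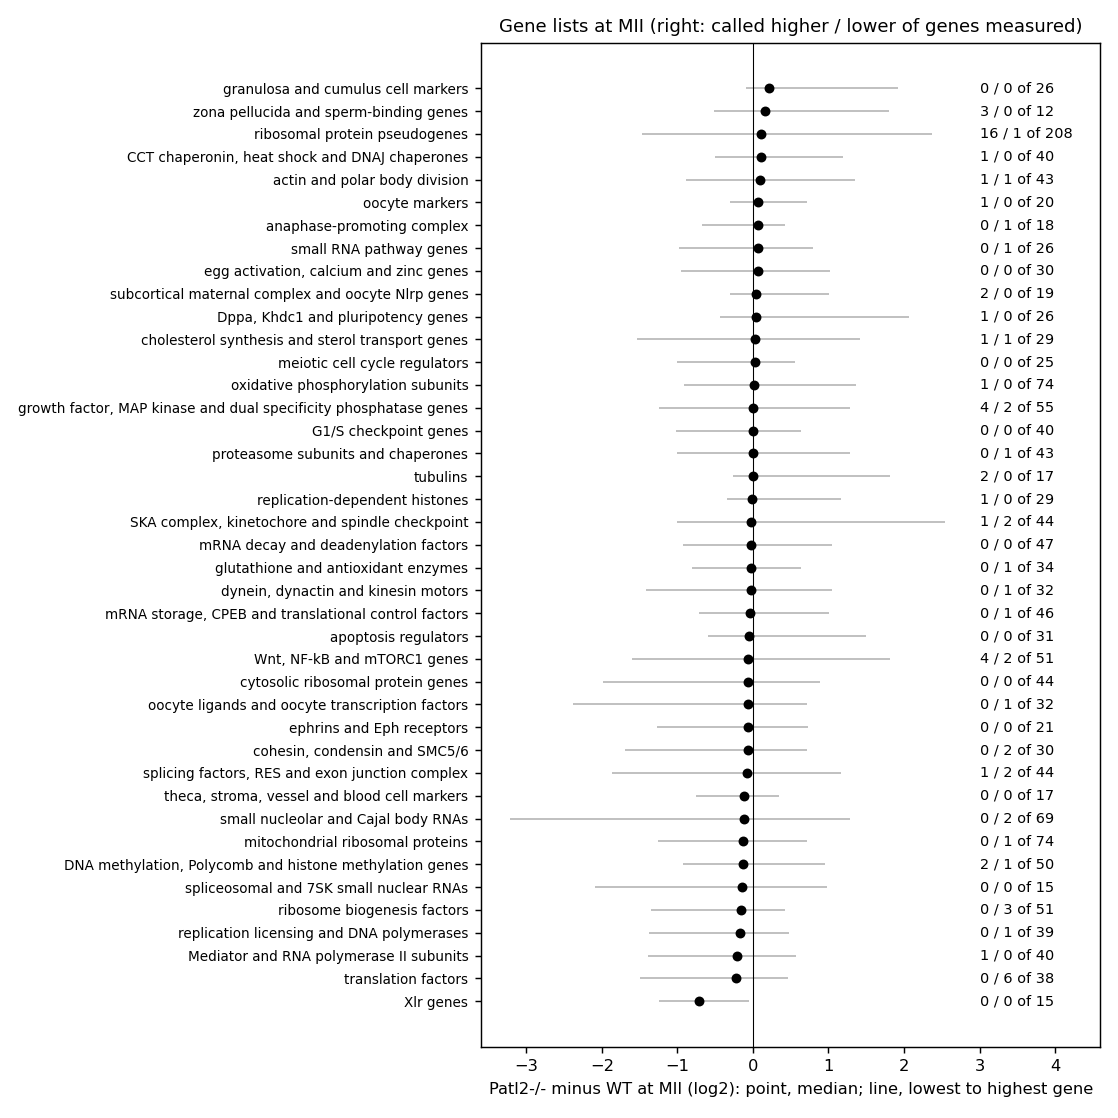
For each list of at least 10 measured genes (y axis), the point is the median log2 difference, *Patl2*-/- minus WT at MII (x axis), and the line runs between its lowest and highest gene, with the number called higher and lower beside it. Medians lie close to 0 for most lists, at -0.22 for translation factors and at -0.71 for *Xlr* genes; keratins and the large receptor and microRNA families are not drawn.

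The remaining large differences belonged to genes of unrelated kinds. *Plxna2*, a semaphorin receptor, fell in every fit that left out an array, and read 10.27, 10.39 and 10.35 in *Patl2*-/- oocytes and 11.70 and 11.95 in WT oocytes, a difference of -1.48 ± 0.10 (adjusted p = 0.00755) that lay between -1.61 and -1.36 with an array left out. *Tlr8*, a receptor for single-stranded RNA, read 4.91, 5.03 and 5.00 against 7.09 and 7.21 (-2.17, adjusted p = 0.00775), a level within the negative controls in the knockout. *Kctd13*, an adaptor of the CUL3 ubiquitin ligase, read 9.77, 9.98 and 9.97 against 11.62 and 11.47 (-1.64, adjusted p = 0.00775). *Mlx*, the partner of the MondoA and ChREBP sugar sensors, read 9.50, 9.16 and 9.22 against 10.82 and 11.41 (-1.82, adjusted p = 0.0161). All 4 genes were also called lower at GV, with differences of -1.56 for *Plxna2*, -1.85 for *Tlr8*, -1.22 for *Kctd13* and -1.93 for *Mlx*. *Nr2c2ap*, a nuclear receptor-associated protein, read 9.21, 9.09 and 9.06 against 10.12 and 10.36 (-1.12, adjusted p = 0.00775), with a GV difference of -0.08. Among the rises *Cbl*, a ubiquitin ligase of receptor tyrosine kinases, read 13.01, 13.01 and 13.09 against 12.01 and 12.15 (0.96 ± 0.07, adjusted p = 0.00755). A second and much dimmer *Cbl* cluster read 5.60, 5.40 and 5.42 against 6.29 and 7.79, a difference of -1.57 that did not pass (adjusted p = 0.776).

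Among the largest rises were those of 2 keratins, with a wide spread between the WT arrays. Of 47 keratins, structural proteins of epithelia and hair, 3 rose, against 0.606% of all genes. *Krt73* read 11.4, 11.89 and 11.53 against 8.54 and 9.72 (2.48 ± 0.40, adjusted p = 0.0424), and its difference ran from 1.89 to 3.07 as arrays were left out. *Krt71*, another hair follicle keratin of the same gene cluster, read 9.02, 9.29 and 8.52 against 6.13 and 7.03 (2.37 ± 0.30, adjusted p = 0.0250). The other keratin, *Krt222*, differed by 0.48 at a level within the negative controls. *Fam162b* read 12.51, 12.60 and 12.58 against 10.73 and 9.87 (2.26, adjusted p = 0.0250). *Enpp3*, an ectonucleotidase, read 9.25, 9.18 and 9.10 against 6.86 and 7.42 (2.04, adjusted p = 0.0287). *Cdkl4*, a cyclin-dependent kinase-like protein, read 8.03, 8.27 and 8.39 against 6.18 and 6.25 (2.01, adjusted p = 0.0265). In each of these 5 genes with a difference over 2 every knockout reading was above both WT readings, as in every cluster called higher. Of 13 clusters of the multicopy *Frg2f* family 9 rose, with a median of 1.54 at MII and 1.07 at GV, and since they hold 11 distinct sets of values some may share probes. Clusters annotated to several genes also rose for *Actg1*, cytoplasmic gamma-actin (0.86 with Gm12715 and 0.92 with *Mir6935*), and for *Ppia*, the cyclophilin A gene (0.86 and 1.30, both with Gm9234). *Prl8a2*, a prolactin family gene, read 5.02, 6.23 and 6.16 against 8.85 and 9.07, a difference of -3.15 ± 0.56 that did not pass (adjusted p = 0.0542).

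Set beside the GV oocytes, 215 of the 242 clusters that were higher at MII and 263 of the 305 that were lower had a difference of the same sign at GV. The share of all clusters with the same sign at both stages was not counted, so these counts have no background here. The median GV difference was 0.38 for the higher and -0.30 for the lower clusters, against 0.02 over all clusters. At GV 20 clusters were higher (0.0303%) and 60 lower (0.091%), of which 15 and 27 were called in the same direction at MII. The GV and MII groups are separate samples, but all 10 arrays share the estimate of spread. The difference between the MII and GV effects passed for 0 clusters in limma (smallest adjusted p = 0.335), with 3952 at an unadjusted p under 0.05 (5.99%), and for 2 clusters without WT MII replicate 2. No gene is therefore shown to differ between the genotypes at MII and not at GV.

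Called genes were spread over all chromosomes. The share of genes called in either direction was 1.36% over the genome, and among the autosomes and the X it was lowest on chromosome 17 (0.908%) and highest on chromosome 18 (2.43%), with 2.02% on the X. Around the targeted gene, where DNA linked to the modified allele can differ between the genotypes, 3 of 169 genes within 5 Mb of *Patl2* rose and none fell, the 3 being *Rps12-ps10*, *Ttbk2* and *Frmd5*. None of 151 genes between 5 and 10 Mb was called, and 3 of 206 between 10 and 20 Mb fell. On the rest of chromosome 2, 7 of 2114 genes rose and 14 fell.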

How the data were processed

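Per the labels and the methods, the authors labelled total RNA (Affymetrix WT pico kit) for 1-colour Clariom D mouse arrays. The deposited values are log2 levels that the authors obtained by running RMA on all arrays in Affymetrix Expression Console (version not given), which subtracts background, makes the arrays' distributions equal and summarises probes. Arrays were grouped by their titles. Control probes were left out and 65956 clusters were fitted with limma 3.58.1 in R 4.3.3 (lmFit, 1 mean for each of 4 groups over all 10 arrays, eBayes, two-sided tests, Benjamini-Hochberg adjustment over all clusters), with a call at an adjusted p under 0.05. The number of arrays limits the precision.

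Clusters were named from the platform annotation, which gives 1 gene to 30638 of them, several to 2176 and none to 33142. Gene coordinates and promoters came from RefSeq (GRCm38.p6). Gene lists used 1 cluster per gene, the one with the highest mean level, and are described by counts. The gene lists and the genes to be named were chosen with earlier results of these data known. Named genes were *Patl2*, the 20 largest differences and 10 smallest p-values per direction among called clusters with 1 gene without a predicted name and with no overlap between genotypes, and called members of the lists with up to 4 further members each. Also named were *Prl8a2*, *Sohlh2*, *Cdc25a*, *Efna4* and *Ska2*, some of the genes that the study's text names for MII oocytes. *Dusp7*, which that text does not name, was added to them. Of clusters with several genes or a family name, those printed were chosen after their values were seen. Alternatives were the replicate block, 3 other scalings, level filters, trend and robust estimation (statmod 1.5.0), array weights, MII arrays alone and leaving out each array. Raw intensities were not used here. Figures and tables were made in Python 3.11.15.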

Additional observations from a re-analysis of the deposited data

How the results depend on the processing

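Counts below are clusters higher, then lower, in *Patl2*-/- than WT MII oocytes, 242 and 305 in the fit described. Quantile normalization once more, cyclic loess, median centring and array weights kept both counts within 1.5 times. With the replicate number as a block the counts were 29 and 24, of which 26 and 20 were among the 242 and 305, and 0 of the 24 short RNA clusters was called. Same-numbered *Patl2*-/- and WT MII arrays had deviations that correlated at -0.13 and -0.1. Over all 13 same-numbered pairs of arrays of different groups the correlations ran from -0.13 to 0.247, with 4 over 0.1 (among them WT GV with *Patl2*-/- GV at 0.227 and 0.136), so the numbers were not taken to pair the samples. Only clusters with a mean level of at least 6 gave 504 and 649, of at least 8 gave 458 and 572, with fewer clusters tested, and at a level of 8 the 2-fold count of higher clusters was 263 instead of 410. Trend and robust estimation gave 140 and 138. The MII arrays alone gave 0 and 0 (3414 and 5016 at an unadjusted p under 0.05 in limma) and *Patl2* at -2.26 with an adjusted p of 0.094, with fewer residual degrees of freedom. With an array left out the counts lay between 10 and 231 for higher clusters and between 5 and 324 for lower ones, and differed by over 1.5 times from the full counts without any 1 of the MII arrays, *Patl2*-/- GV replicate 1 (144 and 192) or *Patl2*-/- GV replicate 3 (83 and 115). Where 1 WT array is left at a stage, it is assumed to vary like the other groups. The count of clusters with different MII and GV effects lay between 0 and 2 (2 without WT MII replicate 2), and *Patl2* between -2.37 and -2.13. *Dusp7*, at 0.02 with all arrays, was -0.12 without WT MII replicate 1 and -0.01 without *Patl2*-/- MII replicate 2, with a range of -0.12 to 0.17. Of 2206 pairs of a named gene and a setting, 1361 kept direction and side of the threshold, 826 lost the call, 17 gained it and 2 changed sign. Except where a setting's construction is named, the cause was not tested.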
